A study of Homo sapiens with 9 samples.

Results

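Gene expression was compared between treated cells of 2 sublines of HSF-6, a human embryonic stem cell line. The comparison uses 6 of the 9 arrays of the study: 3 arrays of HSF-6(S9) cells grown with butyrate and DZNep, and 3 arrays of HSF-6(8) cells grown with the same compounds. The other 3 arrays are of HSF-6(8) cells grown without the compounds and are given beside them. The arrays were chosen by their titles alone, and every probe set that is not a control belongs to the comparison. Per the labels, all cells went through 11 passages and were grown for 6 days. No doses are given, and the labels do not say what (8) and (S9) stand for. No untreated HSF-6(S9) cells are among the samples, so a trait of the subline and its response to the compounds cannot be told apart. Whether the 3 arrays of a group came from separate cultures is not stated, so p-values reflect the spread of these samples only, and that spread may be technical. Precision is limited by having 3 arrays a group.

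Butyrate is a short-chain fatty acid that inhibits histone deacetylases, the enzymes that remove acetyl groups from histone tails. DZNep is an inhibitor of AHCY, the hydrolase of S-adenosylhomocysteine. The substrate then builds up and blocks methyltransferases, and the Polycomb enzyme EZH2, which methylates histone H3 at silenced developmental genes, is lowered. Human embryonic stem cells keep genes of the embryonic lineages silent while SOX2, NANOG and the activin and NODAL pathway maintain the undifferentiated state. Sublines grown apart from one parental line share its donor genome but can diverge in culture.

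Values are MAS5 signals per probe set, an intensity on a linear scale. Array medians ranged over signals of 64.8 to 82.9. Differences are of log2(signal + 16), HSF-6(S9) minus HSF-6(8), with the standard error of the limma fit, and the 16 added to each value understates the change of dim genes. In bulk RNA, fewer cells that express a gene and less of its RNA per cell cannot be told apart. The stem cell markers SOX2, NANOG, LIN28A and DNMT3B were above the array median on all 9 arrays. Of the markers of other cells, the stromal genes COL1A1, COL3A1 and DCN and the trophoblast gene GATA3 were also above it on all 9 arrays. The endoderm genes SOX17, FOXA2, GATA6, AFP and TTR and the neural gene PAX6 were above it on 6 to 8 arrays, and CGA, a trophoblast hormone subunit gene, on 3. CDX2, a trophoblast regulator, was above it on 0 arrays, and LUM, a stromal proteoglycan gene, and SOX1, a neural regulator, on 1 array each. Their part in the results was not tested.

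The arrays of the 2 treated sublines were, at the median, no farther apart than arrays of 1 subline. Distance was taken as the mean absolute log2 difference over the 13519 genes tested. The 9 pairs of a treated HSF-6(S9) and a treated HSF-6(8) array had a median distance of 0.398, with a range of 0.184 to 0.596. The 3 pairs within treated HSF-6(S9) had a median of 0.432, and the 3 pairs within treated HSF-6(8) had a median of 0.460. The closest of all 36 pairs of arrays crossed the sublines: the first HSF-6(S9) array and the first HSF-6(8) array lay 0.184 apart, with 193 genes (1.43%) at least 2-fold different. The first and second treated HSF-6(8) arrays lay 0.225 apart, with 272 such genes (2.01%).

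Of the treated arrays, the third of HSF-6(8) and the second and the third of HSF-6(S9) stood apart. Set against the mean of the other 5 treated arrays, the second and the third HSF-6(S9) arrays had 813 and 539 genes at least 2-fold away, and the first had 141. The third HSF-6(8) array had 1104 such genes, against 157 and 181 on the first and second. The signal at the 75th percentile was 406 on the second HSF-6(S9) array, against 455 to 474 on the other treated arrays and 443 to 457 on the untreated arrays. The mean signal of 18S ribosomal RNA probe sets was 2149 on the third HSF-6(S9) array, 723 on the third of treated HSF-6(8), 1194 on the third of the untreated cells and 316 to 513 on the other 6. The labels name no batch. How far these array differences enter the results was not tested, and results that rest on such an array are given with and without it.

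**Figure D1:**
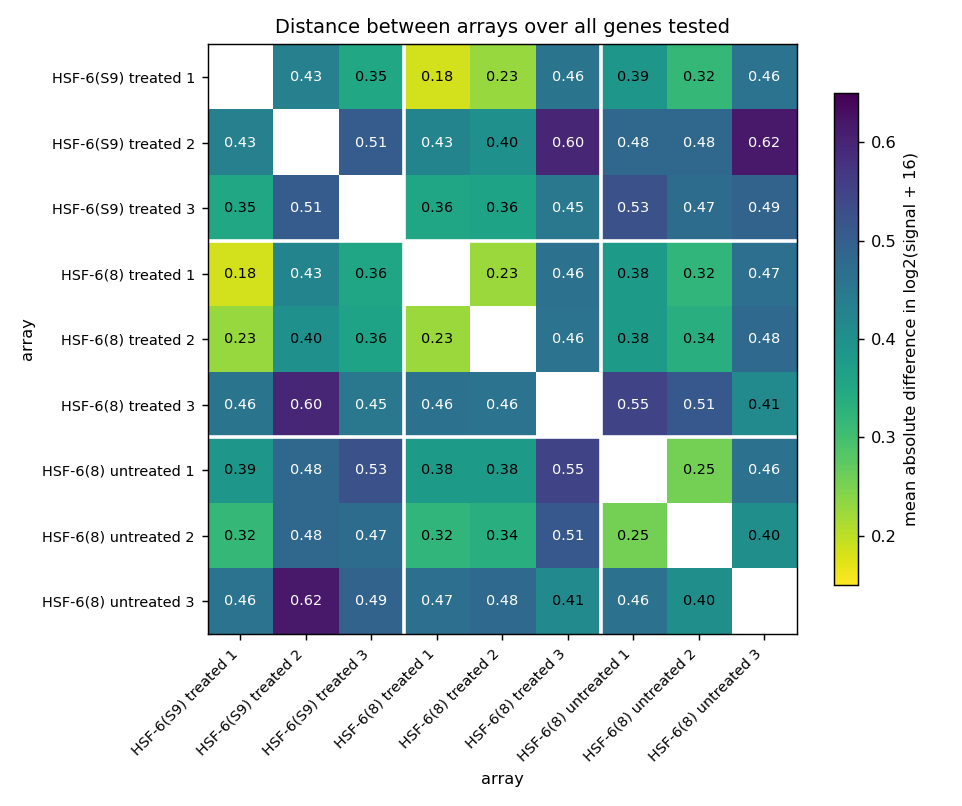
Mean absolute difference in log2(signal + 16) over the 13519 genes tested for each pair of the 9 arrays, with the arrays in rows and columns and white lines between the 3 groups. The first treated arrays of the sublines are the closest pair (0.184), and the third treated HSF-6(8) array lies far from the first and second arrays of its own group (0.462 and 0.460).

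Between the treated sublines, 1 of 13519 genes (0.0074%) passed the test of an adjusted p under 0.05 with at least a 2-fold difference. It was CFC1B, which was higher in HSF-6(S9), and 0 genes (0%) were called lower by limma with Benjamini-Hochberg adjustment. At an unadjusted p under 0.05 there were 344 genes (2.54%), 78 of them higher (0.577%) and 266 lower (1.97%) in HSF-6(S9). The 3 arrays of each subline did not overlap for 862 genes (6.38%), with HSF-6(S9) higher in 370 (2.74%) and lower in 492 (3.64%). Of the 29328 probe sets kept, 0 were called (0%), and 712 had an unadjusted p under 0.05 (2.43%). The same fit called 115 genes (0.851%) in treated over untreated HSF-6(8) and 160 genes (1.18%) in treated HSF-6(S9) over untreated HSF-6(8), 121 higher (0.895%) and 39 lower (0.288%). These 3 comparisons share arrays.

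A p that misses the threshold does not show that the sublines are alike, so the 95% confidence interval of each difference was also read. For 10464 genes (77.4%) the interval lay within 2-fold in both directions, and for 4092 (30.3%) within 1.5-fold. The share within 2-fold depended on the level of the gene. It was 40.4% of the 1944 genes with a mean log2(signal + 16) up to 7 and 92.8% of the 3225 genes above 11. The median log2 difference over all genes was -0.01, and the 5th and 95th percentiles were -0.53 and 0.40. Dim genes leaned low in HSF-6(S9), with 35.6% of the genes up to 7 higher there, and bright genes leaned high, with 61.8% of the genes above 11. After quantile normalization those shares were 48.7% and 51.2%, so the lean by level is not given below as a difference of genes. The genes at an unadjusted p under 0.05 were then 127 higher and 181 lower.

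**Figure D2:**
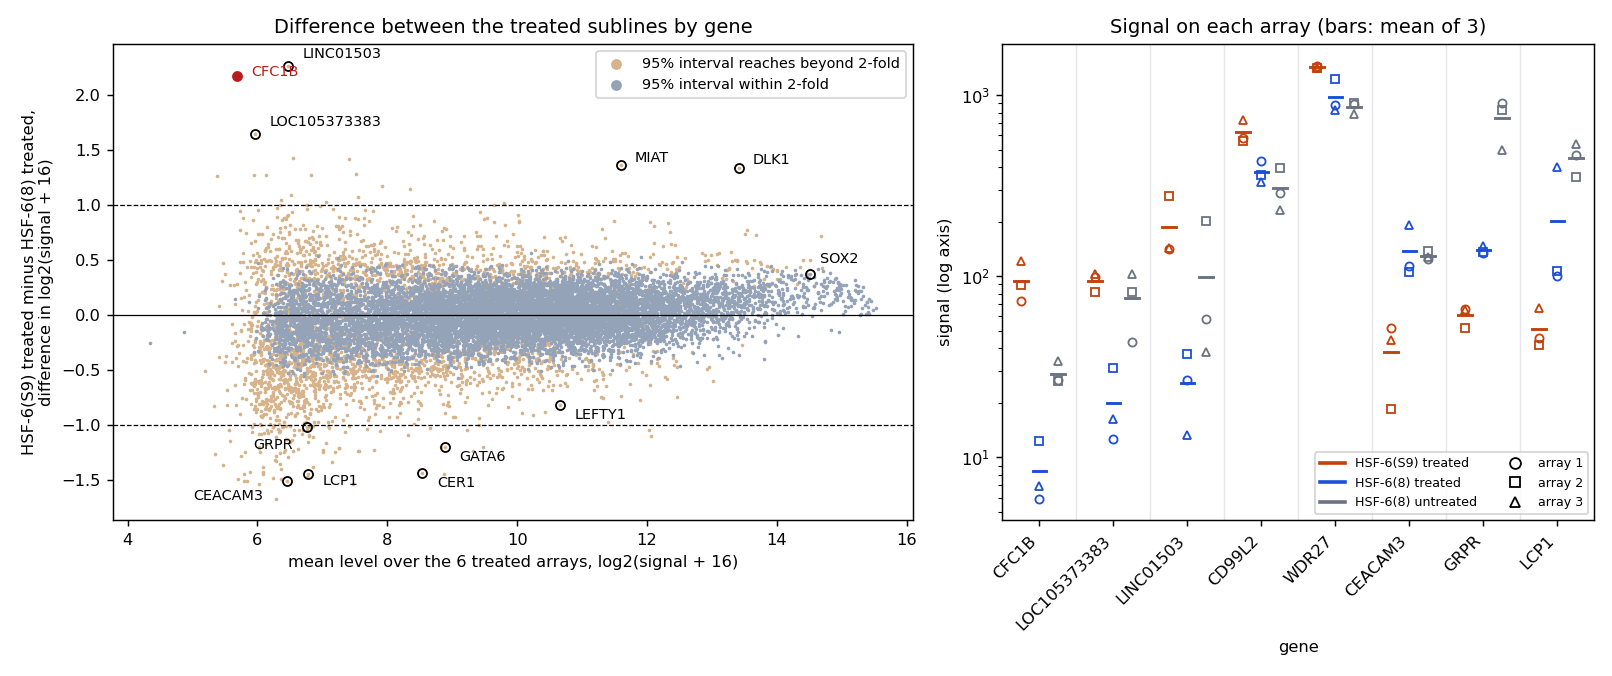
Left, the log2 difference between the treated sublines, HSF-6(S9) minus HSF-6(8), for each gene against its mean level, with dashed lines at 2-fold; right, the signal on each of the 9 arrays for 8 named genes on a log axis, with bars at the mean of 3. Differences beyond 2-fold lie mostly among dim genes, and CFC1B, at 2.17, is the gene called.

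CFC1B encodes a cryptic-family protein of the EGF-CFC group, membrane-anchored co-receptors that NODAL needs to signal. Its probe set had signals of 72.6, 89.5 and 122 on the HSF-6(S9) arrays, against 5.90, 12.3 and 6.91 on the treated HSF-6(8) arrays and 26.6, 26.4 and 33.9 on the untreated HSF-6(8) arrays. All 3 HSF-6(S9) values were above all other values, and the treated HSF-6(8) values were the lowest. All 3 treated HSF-6(8) values were also under the constant added to each value. That constant bounds their log2 level and narrows their spread, so the difference between the treated sublines and its SE depend on it. With 1 added they were 3.38 and 0.28, and with 64 added they were 1.12 and 0.16. The log2 difference between the treated sublines was 2.17 ± 0.20 (SE, n = 3 each), with an adjusted p of 0.018 by limma. It was 2.02, 1.90 and 2.59 between arrays of the same prime mark in the titles. Treated HSF-6(S9) was also called over untreated HSF-6(8), at a log2 difference of 1.28 and an adjusted p of 0.0203. Treated HSF-6(8) was not called against its untreated cells (-0.89, adjusted p 0.103). The signal is low, and the deposited table has no detection calls. CFC1B was above the array median on the 3 HSF-6(S9) arrays and on 0 of the 6 HSF-6(8) arrays, so it passed the filter on low values only through the group where it is high, and without the filter its adjusted p was 0.052 by limma.

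CFC1B lies on chromosome 2 beside CFC1, a near-identical copy that carries the same role, and array probes may not separate the 2 genes. Of 3 other probe sets for these genes, none showed the difference. The probe set annotated to both genes had 339, 304 and 209 on the HSF-6(S9) arrays and 319, 415 and 75.7 on the treated HSF-6(8) arrays. Its groups overlapped, and its log2 difference was 0.32 ± 0.50 (SE). Both CFC1 probe sets, with differences of 0.10 ± 0.45 and 0.59 ± 0.47 (SE), were too dim to pass the filter. The start regions of the copies are shown to make their likeness visible, 250 bases before to 50 after each annotated start on GRCh38.p14 (RefSeq), at chr2:130520972-130521271 on the plus strand for CFC1B and chr2:130599526-130599825 on the minus strand for CFC1. Both hold a run of 275 identical bases, in lower case, and the capitals mark the 25 bases of each window outside that run.
CFC1B: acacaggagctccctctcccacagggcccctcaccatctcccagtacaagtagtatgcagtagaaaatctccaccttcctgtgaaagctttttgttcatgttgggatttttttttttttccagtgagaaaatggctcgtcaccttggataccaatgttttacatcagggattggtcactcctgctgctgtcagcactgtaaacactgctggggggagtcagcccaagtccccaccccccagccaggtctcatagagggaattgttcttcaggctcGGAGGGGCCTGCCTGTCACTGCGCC
CFC1: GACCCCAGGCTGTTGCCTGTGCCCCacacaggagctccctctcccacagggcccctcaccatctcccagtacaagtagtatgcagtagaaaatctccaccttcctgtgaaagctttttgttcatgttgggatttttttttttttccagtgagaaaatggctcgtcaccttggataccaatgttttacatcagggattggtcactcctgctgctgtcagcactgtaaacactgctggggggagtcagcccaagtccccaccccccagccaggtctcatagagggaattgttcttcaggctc

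The call of CFC1B depended on the setting, while its difference was positive in each setting that gave one. It was not called with the 6 treated arrays alone (adjusted p 0.204), with 64 added to each value (1.12, adjusted p 0.364), without the filter (adjusted p 0.052) or with a trend in the variance (adjusted p 0.989). Without the third HSF-6(8) and the second HSF-6(S9) treated arrays it was 2.15 (adjusted p 0.976). It did not pass the filter at the 75th percentile. Without 1 array at a time the adjusted p ranged between 0.0418 and 0.183, and the call remained without the first HSF-6(S9) array (0.0418) or the third untreated array (0.0456). It ended without the second HSF-6(S9) array (0.168), the third HSF-6(S9) array (0.073), any treated HSF-6(8) array (0.183, 0.0691 and 0.141 in their order), and the first or second untreated array (0.0668 and 0.07). The log2 difference lay between 2.00 and 2.32 in these 9 fits.

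The other genes with the smallest p in the direction of HSF-6(S9) were not called. LOC105373383, an uncharacterised locus, had 98.4, 81.7 and 103 on the HSF-6(S9) arrays, against 12.7, 31.0 and 16.2 on the treated HSF-6(8) arrays and 43.2, 81.8 and 103 on the untreated ones. LINC01503, a long non-coding RNA, had 141, 278 and 142 on the HSF-6(S9) arrays, against 26.6, 37.0 and 13.2 on the treated HSF-6(8) arrays and 58.0, 200.5 and 37.9 on the untreated ones. In both genes the treated sublines did not overlap, while the untreated HSF-6(8) arrays reached into the range of the HSF-6(S9) values. Their log2 differences were 1.65 ± 0.28 and 2.26 ± 0.49 (SE), and both adjusted p-values were 0.989.

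Brighter genes in that direction differed by less. WDR27, which encodes a protein with WD repeats, had 1453, 1408 and 1418 on the HSF-6(S9) arrays, against 885, 1229 and 823 on the treated HSF-6(8) arrays and 894, 905 and 786 on the untreated ones. CD99L2, a membrane glycoprotein related to CD99, had 583, 561 and 732 on the HSF-6(S9) arrays, against 430, 363 and 331 on the treated HSF-6(8) arrays and 290, 394 and 232 on the untreated ones. For both genes all HSF-6(S9) values were above all HSF-6(8) values, treated and untreated. The log2 differences were 0.56 ± 0.18 for WDR27 and 0.71 ± 0.22 for CD99L2 (SE, adjusted p 0.989 each). The 2 kept CD99L2 probe sets had differences of 0.71 and 0.72, while the 4 of WDR27 ranged over -0.18 to 0.56. The remaining genes of this kind were dimmer: ATXN7L2 (0.66), SERP2 (0.60), IDI2-AS1 (0.72), the WNT receptor FZD9 (0.99), the ubiquitin ligase TRIM67 (1.27), the RAB exchange factor DENND5B (0.78) and the zinc finger gene ZNF154 (0.78), each a log2 difference that was not called.

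In the opposite direction, GRPR stood out for its closeness across arrays. GRPR encodes the gastrin-releasing peptide receptor. It had 65.8, 51.8 and 64.7 on the HSF-6(S9) arrays, against 135, 135 and 147 on the treated HSF-6(8) arrays and 901, 832 and 496 on the untreated HSF-6(8) arrays. The 3 groups did not overlap, with HSF-6(S9) lowest and the untreated cells highest. GRPR was above the array median on 0 of the 3 HSF-6(S9) arrays, so its level there is low. GRPR fell in both treated groups relative to untreated HSF-6(8), with log2 differences of -3.26 in HSF-6(S9) (adjusted p 0.000146) and -2.25 in HSF-6(8) (adjusted p 0.00175). The difference between the treated sublines was -1.02 ± 0.23 (SE, adjusted p 0.989), was not called, and lay between -0.88 and -1.16 for arrays of the same mark.

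LCP1, the actin-bundling protein L-plastin, had 45.3, 41.7 and 66.9 on the HSF-6(S9) arrays, against 100.4, 107 and 401 on the treated HSF-6(8) arrays and 465, 351.3 and 539.5 on the untreated ones. The treated sublines did not overlap, and the third HSF-6(8) array was near the untreated values. LCP1 was called lower in treated HSF-6(S9) than in untreated HSF-6(8) (-2.80, adjusted p 0.0202), and was not called in treated HSF-6(8) (-1.35, adjusted p 0.286). The difference between the treated sublines was -1.45 ± 0.44 (SE, adjusted p 0.989), and -0.85 without the third HSF-6(8) array. CEACAM3, a carcinoembryonic antigen-related adhesion receptor of granulocytes, had 52.0, 18.6 and 44.4 on the HSF-6(S9) arrays, against 114, 106 and 193 on the treated HSF-6(8) arrays and 124, 137 and 127 on the untreated ones. Treated and untreated HSF-6(8) had like values here, and HSF-6(S9) was called lower than the untreated cells (-1.48, adjusted p 0.0474) but not lower than the treated ones (-1.51, adjusted p 0.989). A second kept CEACAM3 probe set differed by -0.50. Both LCP1 and CEACAM3 were above the array median on 0 of the 3 HSF-6(S9) arrays.

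The other genes with the smallest p in this direction had mean signals under 200 in both sublines. They were LOC101928343 (-0.93), the keratin pseudogene KRT17P5 (-1.51), the troponin gene TNNT3 (-1.44), CIRBP-AS1 (-1.38), EHBP1L1 (-0.78), the atypical cadherin FAT2 (-1.45), the interferon-induced SAMD9L (-1.05), the tetraspanin-like TM4SF1 (-1.33), the orphan receptor GPR78 (-1.07) and the non-coding RNA BANCR (-1.02), with log2 differences in parentheses. None was called, and all had an adjusted p of 0.989. Their treated arrays did not overlap, as is usual for genes picked by the smallest p, and TM4SF1 passed the filter only through the 3 treated HSF-6(8) arrays. KRT17P5 shares sequence with KRT17 and its relatives, so its signal cannot be assigned to one copy. The 2 kept probe sets of EHBP1L1 pointed in opposite directions, at -0.78 and 0.48.

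Across the genome, 122 genes (0.902%) differed by at least 2-fold whatever their p, 20 higher and 102 lower in HSF-6(S9). After quantile normalization there were 101, 42 higher and 59 lower. In 69 of the 122 the arrays of the sublines overlapped. The 122 genes had a median mean signal of 90.3, against 748 over all genes tested, and 10 of the 122 had a mean log2 level above 9. In 8 of these 10 the arrays of the sublines overlapped, and without the third HSF-6(8) array all 10 differed by less than 2-fold.

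High signals on the third treated HSF-6(8) array included a set of NODAL pathway and early lineage genes. LEFTY1, a secreted NODAL inhibitor, had 1401, 861 and 1428 on the HSF-6(S9) arrays, against 1382, 833 and 8231 on the treated HSF-6(8) arrays and 11324, 9819 and 8256 on the untreated ones. The first and second arrays of the treated sublines matched closely, and the third HSF-6(8) array had the level of untreated cells. The ligand gene NODAL had 777, 875 and 823 on the HSF-6(S9) arrays, against 763, 746 and 3661 on the treated HSF-6(8) arrays and 2177, 2053 and 1946 on the untreated ones. Here the third HSF-6(8) array was above all untreated arrays. The log2 differences were -0.82 ± 0.68 for LEFTY1 and -0.63 ± 0.51 for NODAL (SE, adjusted p 0.989 each). Without the third HSF-6(8) array they were 0.16 and 0.12.

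CER1, an inhibitor of NODAL and BMP made by anterior endoderm, had 199, 194 and 241 on the HSF-6(S9) arrays, against 188, 234 and 4489 on the treated HSF-6(8) arrays and 355, 307 and 558 on the untreated ones. GATA6, an endoderm transcription factor, had 276, 290 and 327 on the HSF-6(S9) arrays, against 281, 471 and 2541 on the treated HSF-6(8) arrays and 74.8, 59.9 and 80.0 on the untreated ones. In both genes 1 array set the mean of treated HSF-6(8), and for GATA6 all treated arrays of both sublines were above the untreated arrays. GDF3, a TGF-beta family ligand, had 488, 391 and 531 on the HSF-6(S9) arrays, against 521, 457 and 3523 on the treated HSF-6(8) arrays and 898, 870 and 708 on the untreated ones. The log2 differences of CER1 and GATA6 were -1.43 and -1.20, and without the third HSF-6(8) array they were 0.01 and -0.28. That of GDF3 was -0.06 without that array. TBXT, the primitive streak factor brachyury, and GAL, the neuropeptide galanin, had the same form, with 884 and 14760 on that array and at most 116 and 5041 on the other treated arrays.

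The same array was low for another group of genes. DLK1, an imprinted NOTCH-related ligand, had 11643, 14606 and 30268 on the HSF-6(S9) arrays, against 11611, 9037 and 3047 on the treated HSF-6(8) arrays and 2802, 2795 and 310 on the untreated ones. MIAT, a long non-coding RNA, had 3717, 7529 and 4268 on the HSF-6(S9) arrays, against 3871, 4711 and 375 on the treated HSF-6(8) arrays and 2110, 2231 and 763 on the untreated ones. For DLK1 the first arrays of the sublines were nearly equal and the third arrays lay farthest apart. The log2 differences were 1.33 ± 0.83 for DLK1 and 1.36 ± 0.85 for MIAT (SE, adjusted p 0.989 each), and 0.75 and 0.21 without the third HSF-6(8) array. The stress-response gene DDIT4 and the imprinted cell cycle inhibitor CDKN1C had 1492 and 670 on that array, and at least 5906 and 1922 on the other treated arrays.

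Several genes, picked for that form, were high on the third HSF-6(S9) array. WNT4, a WNT ligand, had 81.1, 186 and 1081 on the HSF-6(S9) arrays, against 114, 82.8 and 73.3 on the treated HSF-6(8) arrays and 59.9, 55.0 and 28.7 on the untreated ones. The neuronal microtubule protein gene MAP2 had 288, 134 and 1143 on the HSF-6(S9) arrays, against 308, 137 and 187 on the treated HSF-6(8) arrays and 42.1, 68.2 and 23.8 on the untreated ones. ZEB1, a repressor of epithelial genes, had 182, 164 and 588 on the HSF-6(S9) arrays, against 195, 127 and 172 on the treated HSF-6(8) arrays and 3.76, 21.95 and 36.5 on the untreated ones. In all 3 genes the third HSF-6(S9) array was the highest of all arrays. The log2 differences of 1.41, 0.80 and 0.64 were not called, and without that array they were 0.42, -0.01 and 0.08. SOX1, a marker of neural progenitors, had 62.0, 5.98 and 737 on the HSF-6(S9) arrays, against 49.1, 63.0 and 25.4 on the treated HSF-6(8) arrays, and did not pass the filter. Of the stromal markers, COL3A1 was also highest on that array, while COL1A1, DCN and LUM were not. The collagen gene COL3A1 had 292, 133 and 1286 on the HSF-6(S9) arrays and 362, 99.1 and 736 on the treated HSF-6(8) arrays. COL1A1, another collagen gene, had 9690, 6692 and 4655 on the HSF-6(S9) arrays and 8829, 8707 and 10614 on the treated HSF-6(8) arrays. Among the treated arrays it was lowest where COL3A1 was highest.

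**Figure D3:**
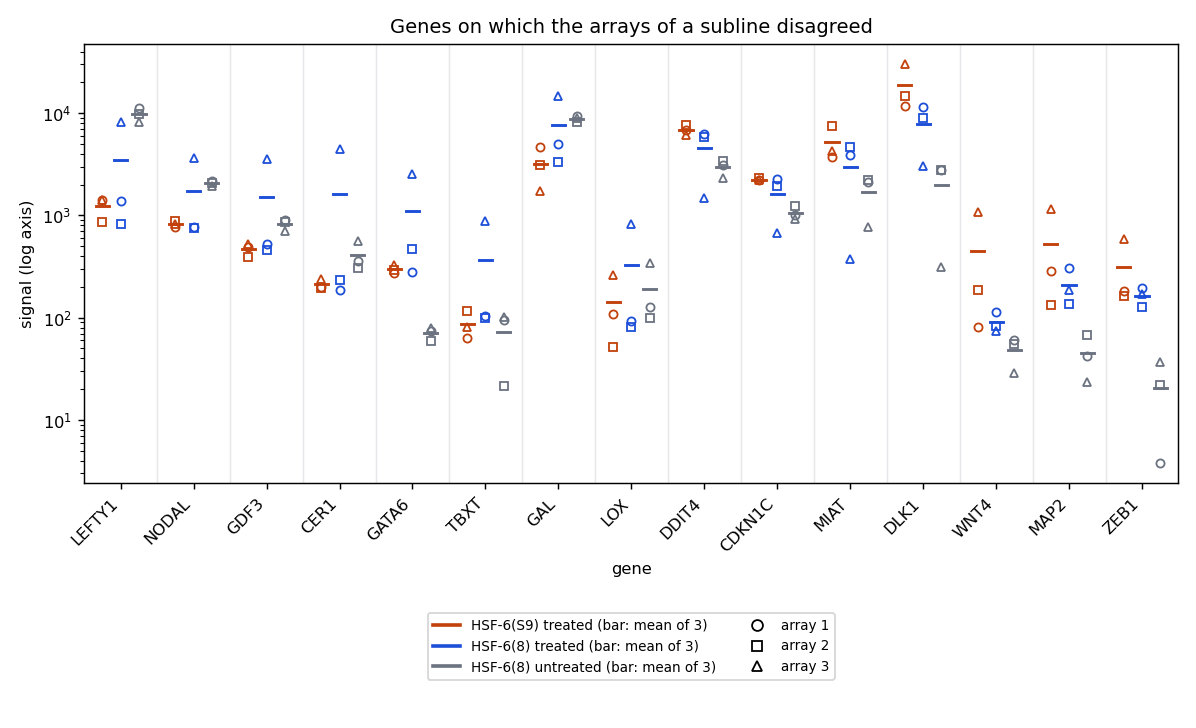
Signal on each of the 9 arrays, on a log axis, for 15 genes on which the arrays of a subline disagreed, with a symbol for each array of a group and bars at the mean of 3. LEFTY1 to LOX are high on the third treated HSF-6(8) array (triangle), DDIT4 to DLK1 are low there, and WNT4, MAP2 and ZEB1 are high on the third HSF-6(S9) array.

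Genes called between treated and untreated HSF-6(8) were then compared between the treated sublines. The fit called 102 genes (0.754%) higher and 13 (0.0962%) lower in treated over untreated HSF-6(8). For the 102 genes the median log2 difference from untreated HSF-6(8) was 1.95 in treated HSF-6(S9) and 2.12 in treated HSF-6(8). These medians share the untreated arrays, and the genes were chosen on the HSF-6(8) values. Between the treated sublines, 0 of the 102 were called, their differences ran from -0.84 to 0.52, and the interval of 71 lay within 2-fold. That is 69.6%, against 77.4% of all genes, and 6 of them (5.88%) had an unadjusted p under 0.05, against 2.54%. For the 13 lower genes the medians were -1.76 in treated HSF-6(S9) and -1.51 in treated HSF-6(8). Between the sublines 9 of their intervals (69.2%) lay within 2-fold, against 77.4% of all genes. An unadjusted p under 0.05 was found for 2 of them (15.4%), against 2.54%. Both sets were chosen on the treated HSF-6(8) arrays, which also enter the difference between the sublines.

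The largest rises were of KRAB zinc finger genes on chromosome 19, which encode DNA-binding repressors. ZNF253 had 866, 1028 and 1204 on the HSF-6(S9) arrays, against 876, 1396 and 761 on the treated HSF-6(8) arrays and 11.9, 3.78 and 25.3 on the untreated ones. DKK1, a secreted WNT inhibitor, had 2752, 2122 and 3464 on the HSF-6(S9) arrays, against 2906, 2870 and 3736 on the treated HSF-6(8) arrays and 209, 197 and 123 on the untreated ones. BEX5, of a family of small brain-expressed X-linked proteins, had 544, 504 and 600.5 on the HSF-6(S9) arrays, against 531, 491 and 657 on the treated HSF-6(8) arrays and 30.5, 33.6 and 36.4 on the untreated ones. All treated arrays of both sublines were above all untreated arrays in these 3 genes, and the treated sublines overlapped. The log2 differences between them were 0.07 for ZNF253, -0.21 for DKK1 and -0.02 for BEX5, with intervals of -0.62 to 0.76, -0.77 to 0.36 and -0.40 to 0.36.

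The intervals also lay within 2-fold for ZNF682 (-0.10), ZNF626 (-0.19), the acyltransferase gene GPAT2 (-0.11), the imprinted NNAT (0.23) and ASTE1 (0.02). The other 2 of the 10 largest rises had wider intervals. DPPA5, a marker of the naive stem cell state, had 1447, 6028 and 5990 on the HSF-6(S9) arrays, against 1589, 5274 and 3442 on the treated HSF-6(8) arrays and 251, 231 and 193 on the untreated ones. The first arrays of both sublines were lowest, and the upper end of the interval was 1.57. CST1, a cysteine protease inhibitor, had 4405, 6448 and 2151 on the HSF-6(S9) arrays, against 5082, 5296 and 6037 on the treated HSF-6(8) arrays and 582, 467 and 272 on the untreated ones. The third HSF-6(S9) array was lowest of the treated arrays, and the interval ran from -1.34 to 0.41.

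Of the genes that fell most in treated HSF-6(8), FLT1, which encodes a VEGF receptor, had 258, 216 and 191 on the HSF-6(S9) arrays, against 236, 243 and 249 on the treated HSF-6(8) arrays and 1002, 1075 and 1080 on the untreated ones. MBD3L2, a relative of the methyl-binding protein gene MBD3, had 4.33, 2.16 and 1.29 on the HSF-6(S9) arrays, against 4.57, 7.86 and 6.28 on the treated HSF-6(8) arrays and 167, 184 and 271 on the untreated ones. Both were low on all treated arrays. The intervals of FLT1 (-0.13) and of ADAMTS8 (0.39), a secreted metalloprotease gene, lay within 2-fold between the sublines. A second kept ADAMTS8 probe set pointed the other way, at -0.43 ± 0.47 (SE). MBD3L2 and ART3 were under the array median on all 6 treated arrays, and MBD3L2 was also under the 16 added to each value on all of them. Their small log2 differences (-0.26 and -0.15) are bounded by that constant and show no likeness. EVA1C differed by 0.44 and GRPR by -1.02, with intervals that reached beyond 2-fold.

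**Figure D4:**
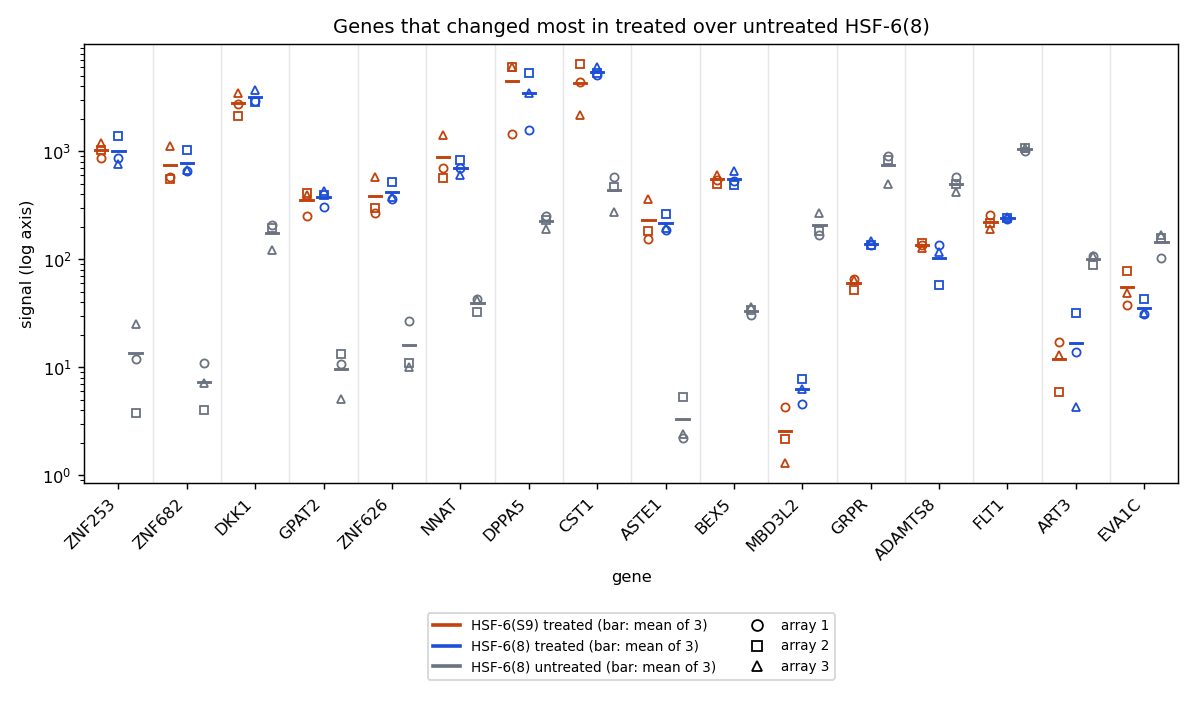
Signal on each of the 9 arrays, on a log axis, for the 10 genes that rose most and the 6 that fell most in treated over untreated HSF-6(8), with a symbol for each array of a group and bars at the mean of 3. Both treated sublines sit together away from untreated HSF-6(8), and GRPR is the gene of the 16 whose treated sublines separate most.

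A few stem cell factors and the enzymes the compounds act on were followed by name. SOX2 had 20649, 37824 and 23596 on the HSF-6(S9) arrays, against 23042, 23348 and 15792 on the treated HSF-6(8) arrays and 27005, 23263 and 20145 on the untreated ones. NANOG had 6145, 6503 and 4306 on the HSF-6(S9) arrays, against 5605, 4915 and 8911 on the treated HSF-6(8) arrays and 8647, 9070 and 8598 on the untreated ones. The groups overlapped in both genes. The log2 differences were 0.37 for SOX2, -0.17 for NANOG, 0.26 for the RNA-binding protein gene LIN28A and 0.11 for the DNA methyltransferase gene DNMT3B, and all 4 intervals lay within 2-fold. However, the 4 kept SOX2 probe sets ranged over -0.64 to 0.37, so they did not all point the same way. Over the lists the share was lower: 15 of 27 intervals of the pluripotency network, 9 of 17 of the primed state and 6 of 15 of the naive state lay within 2-fold, against 77.4% of all genes. The medians were -0.07, 0.02 and -0.36, and 1 member, DPPA2 (-0.67), had an unadjusted p under 0.05. The pluripotency median depended on single arrays. It was -0.28 without the second HSF-6(S9) array, and 0.25 with 18 of 27 members higher without the third. POU5F1, the core stem cell factor, and TDGF1, another EGF-CFC co-receptor, were not among the genes tested.

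EZH2 had 1370, 1213 and 1949 on the HSF-6(S9) arrays, against 1290, 1313 and 2619 on the treated HSF-6(8) arrays and 1162, 1015 and 1609 on the untreated ones. The third array was highest in each group. AHCY had 8260, 13744 and 8338 on the HSF-6(S9) arrays, against 8385, 8929 and 7264 on the treated HSF-6(8) arrays and 7403, 6830 and 6232 on the untreated ones. The log2 differences of EZH2, AHCY and the histone deacetylase gene HDAC1 were -0.15, 0.27 and 0.10, and the intervals lay within 2-fold. Among the 500 brightest genes, those with the narrowest intervals were the splicing factor gene TRA2B (0.03), the histone-binding ANP32A (-0.04), the RNA-binding QKI (0.16) and CAPRIN1 (-0.03), the proteasome subunit gene PSMA1 (0.01) and the actin-capping CAPZA1 (-0.10), with intervals no wider than -0.43 to 0.48 over the 6. These intervals are of the brightest probe set of each gene. The 9 kept probe sets of QKI ranged over -0.43 to 0.60 and the 7 of CAPRIN1 over -0.42 to 0.16, while the 3 of PSMA1 ranged over -0.01 to 0.02. On the brightest QKI probe set the treated sublines did not overlap, with HSF-6(S9) higher.

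Of 37 gene lists with 637 distinct members tested, 0 members were called between the treated sublines. At an unadjusted p under 0.05 there were 13 members (2.04%), near the 2.54% of all genes. The interval lay within 2-fold for 434 members (68.1%), against 77.4% of all genes. List medians ran from -0.57 to 0.21, against -0.01 over all genes. The lowest medians were those of the endoderm, FGF and ERK, metallothionein and mesoderm lists.

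Several lists had a larger share of intervals within 2-fold than all genes. That share rises with the level of a gene, and the lists were not matched for level. Whether it is particular to these lists was not tested. Of 27 Polycomb members, 16 were higher and 11 lower with a median of 0.04, and 26 intervals lay within 2-fold. They include EED and SUZ12, the partners of EZH2, at -0.11 and -0.04, and EZH1, its paralog, at 0.38. Of 24 histone deacetylases, sirtuins and partners, 22 lay within 2-fold with a median of 0.07. HDAC11 (0.47) and HDAC4 (0.36) had the largest differences and were the 2 members of 24 whose treated sublines did not overlap, against 6.38% of all genes. A second kept HDAC11 probe set pointed the other way, at -0.27. Of 20 genes of DNA methylation, 17 lay within 2-fold, and 18 of 19 genes of the methionine cycle, which supplies the methyl donor. All 19 genes of cholesterol synthesis and all 12 of the BEX and TCEAL family lay within 2-fold, as did 27 of 28 proliferation genes, 20 of 21 apoptosis genes and 16 of 19 KRAB zinc finger genes of the cluster on chromosome 19.

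The endoderm list had the lowest median, -0.57, with 15 of 17 members lower in HSF-6(S9) and 3 intervals within 2-fold. Its summed signal was 9785, 10875 and 9034 on the HSF-6(S9) arrays, against 9252, 10100 and 22873 on the treated HSF-6(8) arrays and 8753, 7970 and 7256 on the untreated ones. The third HSF-6(8) array alone was high. Without it the median was -0.06, with 9 of 17 members lower and 9 intervals within 2-fold. The endoderm regulator SOX17 had 193, 214 and 121 on the HSF-6(S9) arrays, against 127, 208 and 977 on the treated HSF-6(8) arrays.

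The mesoderm and primitive streak list had a median of -0.43 with 14 of 15 members lower, and -0.10 without the third HSF-6(8) array. Its summed signal was 4648, 4175 and 4051 on the HSF-6(S9) arrays, against 4863, 4947 and 15556 on the treated HSF-6(8) arrays and 3635, 4027 and 3636 on the untreated ones. The Nodal and TGF-beta list had a median of -0.21 and the naive state list of -0.36, and without that array they had -0.04 and -0.10. FURIN, a protease that matures TGF-beta family ligands, was the member of the Nodal list at an unadjusted p under 0.05. It had 279, 222 and 219 on the HSF-6(S9) arrays, against 418, 448 and 364 on the treated HSF-6(8) arrays. The sublines did not overlap, and the log2 difference was -0.74 ± 0.22 (SE, adjusted p 0.989).

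The FGF and ERK feedback list, of FGF ligands and receptors and of genes that ERK signalling induces, had a median of -0.52 with 20 of 23 members lower. At an unadjusted p under 0.05 were 4 of the 23 members, against 2.54% of all genes, and none was called. They were the phosphatase gene DUSP4 (-0.93), the ETS factor gene ETV1 (-0.79) and the inhibitors SPRY4 (-0.62) and SPRED2 (-0.53). DUSP4 had 265, 123 and 155 on the HSF-6(S9) arrays, against 256, 311 and 498 on the treated HSF-6(8) arrays. The receptors FGFR1, FGFR2 and FGFR3 were the 3 members that were higher, at 0.45, 0.42 and 0.52. The list median was -0.28 without the third HSF-6(8) array, -0.28 without the third HSF-6(S9) array, and -0.06 with the first and second arrays alone. In these settings, in the same order, 0, 2 and 1 members had an unadjusted p under 0.05.

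All 7 metallothioneins tested, small proteins that bind zinc and copper, were lower in HSF-6(S9), with a median of -0.52. MT1G had 3369, 6664 and 914 on the HSF-6(S9) arrays, against 3567, 4424 and 4855 on the treated HSF-6(8) arrays and 3938, 3560 and 3805 on the untreated ones. The third HSF-6(S9) array was the lowest of all, and without it 6 of the 7 were higher, with a median of 0.06. Glycolysis had the highest median, 0.21, with 18 of 22 members higher and 0 at an unadjusted p under 0.05. The lactate dehydrogenase gene LDHA had 19491, 39930 and 19267 on the HSF-6(S9) arrays, against 19503, 21570 and 17778 on the treated HSF-6(8) arrays. The second HSF-6(S9) array alone was high, and without it the glycolysis median was -0.02, with 10 members higher and 12 lower.

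Summed signals of other cells' markers were compared by array. The summed signal of the fibroblast and stromal list was 49087, 62600 and 61028 on the HSF-6(S9) arrays, against 49205, 52214 and 89426 on the treated HSF-6(8) arrays and 49378, 47964 and 55973 on the untreated ones. The summed signal of the neuroectoderm list was 30718, 41783 and 31910 on the HSF-6(S9) arrays, against 30762, 30971 and 35537 on the treated HSF-6(8) arrays and 30006, 27252 and 25716 on the untreated ones. In the trophoblast list the sums were 3809, 2695 and 4478 on the HSF-6(S9) arrays, against 3920, 3365 and 3674 on the treated HSF-6(8) arrays and 1855, 1978 and 2029 on the untreated ones. The treated sublines overlapped in the trophoblast sum, and all 6 treated arrays were above the untreated ones. GATA3, a trophoblast regulator, had 684, 631 and 977 on the HSF-6(S9) arrays, against 661, 809 and 758 on the treated HSF-6(8) arrays and 179, 126 and 154 on the untreated ones.

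**Figure D5:**
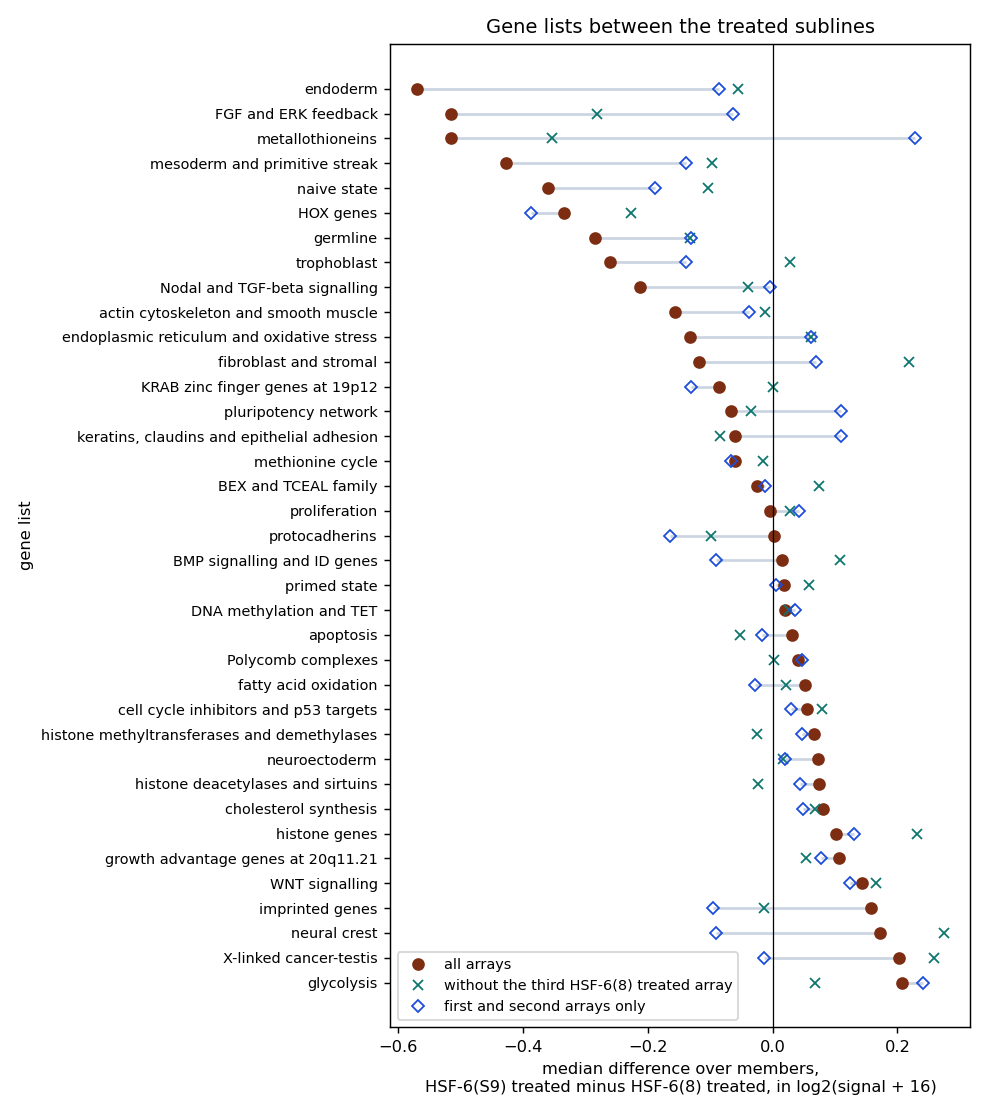
Median log2 difference between the treated sublines, HSF-6(S9) minus HSF-6(8), over the members of each of 37 gene lists, with all arrays (filled), without the third treated HSF-6(8) array (crosses) and with the first and second arrays alone (open diamonds). The endoderm median is -0.57 with all arrays and -0.06 without that array.

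The treated sublines were also compared by chromosome, since stem cell sublines can gain segments in culture. Chromosome medians of the log2 difference ran from -0.05 on chromosome 13 to 0.03 on chromosome 17. Over 12367 windows of 50 neighbouring genes, medians lay between -0.18 and 0.17. The 18 genes tested from the chromosome 20 segment whose gain is known to favour growth of stem cells had a median of 0.11, with 14 higher and 4 lower, 0 at an unadjusted p under 0.05, and 16 intervals within 2-fold. Without the third HSF-6(8) array the median was 0.05, with 11 higher and 7 lower. Without that array and the second HSF-6(S9) array it was -0.05, with 7 higher and 11 lower.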

How the data were processed

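RNA of 9 samples was amplified, labelled with biotin and hybridised to Affymetrix arrays of 54675 probe sets, 62 of them controls. The authors made the deposited intensity values with Affymetrix Expression Console and MAS5, per the submitters' processing notes, with no version given in those notes. The trimmed mean of each array was 500.1, so the arrays had been scaled.

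Probe sets above the array median on at least 3 of 9 arrays were kept (29328, of which 24775 had a single gene). A gene took its brightest kept probe set, giving 13519 genes, and 6533 of them had several. Of 41091 single-gene probe sets, 41037 found a current symbol through their Entrez number. Log2(signal + 16) was fitted in 3 groups with limma 3.58.1 (R 4.3.3), with 6 residual and 3.47 prior degrees of freedom, and Benjamini-Hochberg adjustment of two-sided p-values over all genes. An exact permutation test of 3 against 3 arrays cannot go below 0.1 and was not used. The steps were tested on simulated data.

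The prime marks of the titles were checked as a pairing. After removing group means, same-mark arrays of the treated sublines correlated at 0.19, 0.20 and 0.26 across genes, all above 0.1. Arrays of other marks correlated at 0.03 at most between these sublines, so the marks were taken to pair them.

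Genes named were those with the smallest p and the largest differences in each direction, list members with the largest differences, the largest changes with treatment, a set of stem cell and target genes, and the narrowest intervals. Some list members, markers and genes of single arrays were added after their values were seen. The comparison, lists and tests were chosen with earlier results of these data known. XIST and Y-linked genes are not reported here. Alternatives varied the added constant, filter, normalization, block, arrays, variance model and probe set rule.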

Additional observations from a re-analysis of the deposited data

How the results depend on the processing

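The number of genes called between the treated sublines was 1 with 1 added to each value, quantile normalization, the replicate block, the third arrays as a batch, array weights or probe sets averaged by gene. It was 0 with 64 added, with no filter, with the 75th percentile filter, with the 6 treated arrays alone, with the first and second arrays alone, with a trend and robust variance, and without the third HSF-6(8) and second HSF-6(S9) treated arrays, a setting chosen after seeing the data. It was 0 to 1 when 1 array was left out. Of probe sets, 0 were called except 1 with 1 added to each value and 1 with quantile normalization. The share of genes with an interval within 2-fold ran from 63.0% with no filter to 89.9% with the 75th percentile filter. With the marks of the titles as a replicate block, the share was 83.6%, CFC1B had an adjusted p of 0.0465 by limma, and no other call between the treated sublines changed.

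Counts against untreated HSF-6(8) moved more. In treated HSF-6(S9) the 160 genes became 96 with no filter, 95 with the 75th percentile filter, 258 with the replicate block, 301 with the third arrays as a batch, 100 with the first and second arrays alone, 452 with array weights, and 58 to 241 when 1 array was left out, lowest without the second untreated array and highest without the third array of treated HSF-6(8). The marks did not pair these groups, with correlations of -0.02, 0.08 and 0.34. In treated HSF-6(8) the 115 genes became 65 with the 75th percentile filter, 189 with the third arrays as a batch, 504 with array weights, and 53 to 119 when 1 array was left out, lowest without the second treated array. Here the same-mark correlations were 0.21, 0.26 and 0.49, all above 0.1. Arrays of other marks correlated as highly, at 0.26 for the first untreated with the second treated array. The second untreated and the first treated array correlated at 0.32. The check therefore does not show that the marks pair these groups, and the replicate block gave 164 genes. The cause of the changed counts was not tested. Of 2751 values for 128 other named genes, 2670 moved by less than 1 SD, 81 moved by more, and 0 changed sign as a called value or became called. The SD was that of the gene's own treated arrays, so leaving out 1 array could not move a value by more than 1 SD. These counts therefore do not show that a value holds without a given array. MIAT, for one, went from 1.36 to 0.21 without the third HSF-6(8) array. The median SE was 0.24 over all genes and 0.35 over genes with a mean log2 level up to 7. With 3 arrays a group, differences well beyond 2-fold could therefore go uncalled in dim genes. LINC01503 (2.26) and LOC105373383 (1.65) were not called, with an adjusted p of 0.989 each by limma, while CFC1B was called.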
